A study of Mus musculus with 4 samples.

Results

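The 10 genes described here are a standard panel of ERK pathway output and feedback genes: the MAP kinase phosphatases Dusp4, Dusp5 and Dusp6, the Sprouty and Spred inhibitors Spry1, Spry2, Spry4 and Spred1, the ETS transcription factors Etv4 and Etv5, and Phlda1. They were chosen by symbol from a table of 16857 mouse genes, and all 10 had a row. RNA was sequenced from 4 adenoma colonoid lines, epithelial structures grown in culture from adenomas and labelled Apcmin. The G0 group was lines 75 and 179, labelled Apcnull and heterozygous for a Tert allele called LSL-mTERT. The G2 group was lines 157 and 236, labelled Apcnull and homozygous for that allele. All 4 lines thus share the Apc loss. The labels give neither the age of the animals nor whether each line came from a separate mouse. Each line gave 1 library, so the p-values speak only of the spread among these 4 lines.

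ERK is the last kinase of a cascade in which receptor tyrosine kinases activate Ras, Ras activates RAF, RAF activates MEK and MEK activates ERK. Active ERK switches on genes, and many of the earliest encode its own brakes: dual-specificity phosphatases that strip the activating phosphates from ERK, and Sprouty and Spred proteins that act between the receptor and RAF. In intestinal crypts the pathway is driven by EGF family ligands from the niche and sustains division of stem and progenitor cells. The transcript level of these genes is widely used as a readout of ERK activity, although no phosphorylated ERK was measured here.

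Stretches of promoter are shown for the members in which a letter motif of a factor known to link ERK to transcription was found. Capicua (CIC) is a repressor of genes of this panel that ERK signalling relieves, and serum response factor (SRF) binds CArG boxes. RefSeq promoter windows of GRCm38.p6, from 250 bases before to 50 after an annotated start, were given for 6 of the 10 members: Dusp5, Dusp6, Spry1, Spry2, Spred1 and Etv5. Dusp4, Phlda1, Spry4 and Etv4 were not searched. The motifs were searched on both strands. Capitals mark a CIC octamer, read on the opposite strand, in Dusp6 and Spry2, and adjoining CArG boxes in Dusp5. Each sequence runs 5′ to 3′ on the strand of its gene.
Dusp6 (chr10:99263147-99263229, plus strand): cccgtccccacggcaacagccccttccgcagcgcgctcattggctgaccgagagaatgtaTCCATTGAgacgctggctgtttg
Spry2 (chr14:105896851-105896933, minus strand): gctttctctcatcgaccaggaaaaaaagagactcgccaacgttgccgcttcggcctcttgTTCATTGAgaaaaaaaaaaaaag
Dusp5 (chr19:53529003-53529097, plus strand): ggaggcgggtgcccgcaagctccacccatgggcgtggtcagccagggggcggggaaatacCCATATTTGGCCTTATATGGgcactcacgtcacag

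The octamers searched for CIC were TGAATGAA, TGAATGGA, TCAATGAA and TCAATGGA, and 3.84% of the 32851 windows of this length held at least 1 of them. The Dusp6 window held the letters TCAATGGA at 2 places, from 24 to 17 bases before the start and again just after it. The Spry2 window held TCAATGAA from 54 to 47 bases before the start. A CArG box was in 1.63% of all windows, and Dusp5 had 2 of them side by side, from 82 to 63 bases before the start. The AP-1 letters TGANTCA (7.81% of all windows), the ETS letters CCGGAAGT (3.89%) and the cAMP response element TGACGTCA (1.79%) were in none of the 7 windows of these 6 genes. CArG boxes, AP-1 sites and cAMP response elements read alike on both strands and were counted once, and no marked sites of different kinds overlapped. A match describes letters and no binding.

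Levels are in normalized counts, which are whole counts recovered from the deposited log2 values and divided by the authors' size factors. Totals lay between 16545429 and 17901744 counts per library. Tert had 93.3 and 97.5 normalized counts in the G0 lines and 0.0 and 1.0 in the G2 lines, 195-fold lower (95% counting interval 34.6 to 7750), or 97.6-fold without G2 replicate 1, and passed the test described next (adjusted p = 0.00128). The Tert fold rests on 1 count in G2, and without G2 replicate 2 that group had 0 counts and gave no fold. The Y-linked gene Kdm5d was at 0 in both G0 lines and at a mean of 524 normalized counts in G2, so that sex and group cannot be told apart for any gene below. Of the 10 colon epithelial markers, Epcam, Cdh1, Krt8, Krt18, Krt19 and Lgals4 were abundant in every library. Cdx1 stayed at 2.0 to 8.1 normalized counts, and Krt20 at 0.0 to 4.9 except for 93.8 in G2 replicate 1. Cdx2, Vil1 and Lgals4 fell 12.2-fold, 4.42-fold and 2.15-fold in G2 and Cdh1 rose 1.80-fold (limma adjusted p = 0.000430, 0.0103, 0.0124 and 0.0171).

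G2 was compared with G0 by limma on log2(normalized count + 1), over the 13981 genes whose mean reached 1 normalized count. The threshold was a Benjamini-Hochberg adjusted p under 0.05. An exact permutation test of 2 libraries against 2 cannot go below a two-sided p of 0.333 and was not used. A log2 fold change is G2 minus G0 on that scale, which understates the change of low genes. All 10 members were tested. Etv4 fell in G2, and it was the 1 member of 10 that passed. Over all genes tested, 10.5% passed, 5.93% higher and 4.56% lower in G2, so the members' share was close to the background. The median log2 fold change was -0.0022 over the members and 0.012 over all genes tested, with 5 members above 0 and 5 below. An unadjusted p under 0.05 was reached by 4 members, Etv4, Spry4, Dusp5 and Spry1, beside 26.8% of all genes.

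The G2 libraries lay wholly above the G0 libraries for Dusp6, Spry1, Spry2 and Phlda1, and wholly below them for Dusp5, Spry4 and Etv4. These 7 of 10 members (4 above, 3 below) stand beside 57.8% of all genes tested (29.2% above, 28.6% below). For Dusp4, Spred1 and Etv5 the libraries of the groups overlapped.

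**Figure D1:**
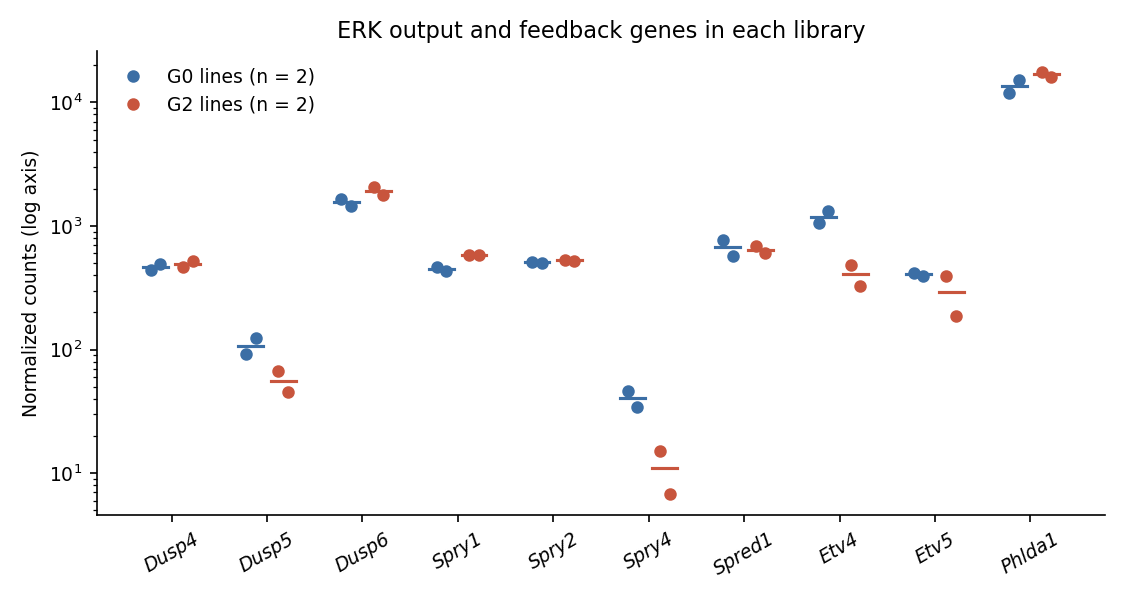
Normalized counts (log axis) of the 10 ERK output and feedback genes in each library, G0 lines in blue and G2 lines in red, with a bar at the mean of each pair. Etv4 stands at 1056.5 and 1310.4 in G0 and at 484.1 and 329.4 in G2, while the pairs of Spry2 and Dusp4 lie close together.

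Etv4 encodes a PEA3 family ETS factor that is induced by FGF and EGF signalling through ERK and drives proliferation and invasion genes. The gene lies on chromosome 11 from 101769747 to 101785310 (GRCm38.p6). It was measured at 1056.5 and 1310.4 normalized counts in G0 and at 484.1 and 329.4 in G2. Both G2 values lay below both G0 values, and the gap between the nearest lines, 1.12 on the log2 scale, was wider than the SD within either group, 0.22 in G0 and 0.39 in G2. Etv4 was 2.91-fold lower in G2, with means of 1183 ± 180 and 407 ± 109 (SD, n = 2 each), a log2 fold change of -1.56, an SE of 0.22 and a 95% interval of -2.08 to -1.03 (adjusted p = 0.00750). By p it ranked 396 among the genes tested, and by size of fall 562. In these bulk libraries fewer cells with a transcript and less transcript per cell cannot be told apart. The call was lost when any single library was left out, with log2 fold changes of -1.83 to -1.28. Such a fit leaves a single library in a group, where hardly any gene passes, so this loss was near certain. The call was also lost when the fit had no intensity trend (limma adjusted p = 0.0718).

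Etv5, the closest relative of Etv4 and a factor also induced by FGF signalling, was measured at 414.4 and 397.2 in G0 and at 397.3 and 185.7 in G2. One G2 line was thus at the level of the G0 lines and the other at less. Its log2 fold change was -0.58 with an interval of -1.38 to 0.23 (adjusted p = 0.318). Without G2 replicate 2 the value was -0.03, and without G2 replicate 1 it was -1.12, a 2.18-fold lower mean in place of 1.39-fold. Etv1, the remaining PEA3 factor, was low in all lines, at 16.7, 13.2, 4.0 and 3.9 normalized counts (adjusted p = 0.0888).

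Per kilobase of the longest coding transcript of each gene, the PEA3 family summed to 598 ± 72 normalized counts per kb in G0 and 244 ± 83 in G2. Etv4 made up 82.4% ± 2.7 of that sum in G0 and 70.6% ± 5.4 in G2, and Etv5 17.2% ± 2.6 and 29.2% ± 5.5. Etv4 was the most abundant of the 3 in every library. These sums are descriptions and were not tested.

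**Figure D2:**
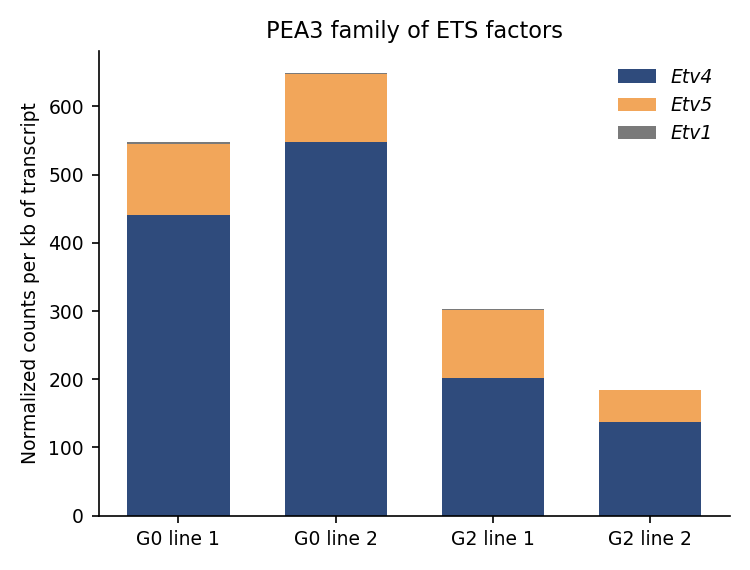
Stacked normalized counts per kb of transcript of Etv4, Etv5 and Etv1 in each of the 4 libraries. The stacks reach 548 and 649 in the G0 lines and 303 and 185 in the G2 lines, with Etv4 the largest part of each and Etv1 barely visible.

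Among the phosphatases, Dusp6 is the ERK-selective enzyme of the cytoplasm and the most used transcript readout of the pathway. Dusp6, on chromosome 10 from 99263231 to 99267489, stood at 1660.4 and 1453.6 normalized counts in G0 and at 2077.5 and 1784.8 in G2. Both G2 lines were above both G0 lines, by a narrow margin. Its log2 fold change was 0.31 with a 95% interval of -0.04 to 0.66 and did not pass (adjusted p = 0.229), so a fall of the size seen for Etv4 lies outside the interval.

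Dusp4, a nuclear phosphatase of ERK and JNK on chromosome 8 from 34807610 to 34819894, had 437.9 and 492.7 in G0 and 463.9 and 520.0 in G2. Values of both groups interleaved. Its log2 fold change was 0.08 (interval -0.31 to 0.47, adjusted p = 0.790), and its sign turned when G0 replicate 1 or G2 replicate 2 was left out.

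Dusp5, a nuclear phosphatase specific to ERK, on chromosome 19 from 53529145 to 53541809, was the lowest phosphatase of the panel at 91.3 and 122.9 in G0 and 66.6 and 45.0 in G2. Both G2 lines lay below both G0 lines. Its log2 fold change was -0.94 with an interval of -1.72 to -0.16, but it did not pass over all genes (unadjusted p = 0.0244, adjusted p = 0.123). An antisense transcript is annotated over an exon of Dusp5, and the strand setting of the counting is not given in the sources used here, so reads from either strand cannot be told apart. The same holds for unnamed transcripts annotated opposite to Spry1 and Phlda1.

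Per kb, Dusp6 was the most abundant of the 3 phosphatases, at 557 ± 52 in G0 and 691 ± 74 in G2, followed by Dusp4 at 170 ± 14 and 180 ± 14 and Dusp5 at 43.3 ± 9.0 and 22.5 ± 6.2. Among the ERK-selective cytoplasmic enzymes, Dusp6 made up 56.0% ± 1.9 of the summed counts per kb in G0 and 61.8% ± 2.7 in G2. Dusp7 made up 25.6% ± 0.35 and 30.1% ± 0.90, and Dusp9 18.4% ± 1.5 and 8.18% ± 3.6. The inducible nuclear group (Dusp1, Dusp2, Dusp4 and Dusp5) was mostly Dusp1, at 68.3% ± 3.6 in G0 and 78.0% ± 3.9 in G2, while Dusp5 made up 6.43% ± 1.4 and 2.40% ± 0.33. These shares were not tested.

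The Sprouty genes encode membrane-bound inhibitors that bind adaptor and RAF proteins. Spry1, on chromosome 3 from 37639947 to 37644599, stood at 469.3 and 432.7 normalized counts in G0 and at 581.9 and 587.5 in G2. The G2 pair was above the G0 pair and close together. Its difference on the log2 scale was 0.37 (interval 0.01 to 0.74), with an unadjusted p of 0.0456 and an adjusted p of 0.177.

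Spry2, on chromosome 14 from 105891947 to 105896819, was the steadiest member, at 515.5 and 503.8 in G0 and 529.5 and 522.9 in G2. Its 4 values lay within a few percent of each other. Its log2 fold change was 0.05 with an interval of -0.31 to 0.40 (adjusted p = 0.870).

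Spry4, on chromosome 18 from 38586247 to 38601347, was the lowest member, at 46.1 and 34.5 normalized counts in G0 and 15.1 and 6.8 in G2. Both G2 lines lay below both G0 lines, and its difference was the largest of the panel in size and the least precise. On the log2 scale it was -1.86 (SE 0.50, interval -3.04 to -0.69). It missed the threshold (unadjusted p = 0.00717, adjusted p = 0.0591) and passed it with a pseudocount of 5 (log2 fold change -1.54, adjusted p = 0.0425). With no intensity trend its limma adjusted p was 0.115. The mean was 3.67-fold lower in G2, and 5.90-fold lower without G2 replicate 1. Of the summed counts per kb of the 3 Sprouty members, Spry2 made up 58.8% ± 1.2 in G0 and 54.2% ± 0.24 in G2, Spry1 39.1% ± 0.83 and 45.3% ± 0.50, and Spry4 2.04% ± 0.34 and 0.496% ± 0.26.

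Spred1, on chromosome 2 from 117121071 to 117182279, encodes a relative of the Sproutys that brings the Ras inhibitor neurofibromin to the membrane. It was measured at 775.7 and 570.9 in G0 and at 686.8 and 601.1 in G2. The G2 values fell inside the G0 range. The log2 fold change was -0.05 (interval -0.51 to 0.41, adjusted p = 0.889), with the opposite sign, 0.01 and 0.02, when libraries were scaled by their totals and with voom weights.

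Phlda1, on chromosome 10 from 111506286 to 111508649, encodes a pleckstrin homology-like protein that is induced by growth factors and has been used as a marker of intestinal stem and tumour cells. It was by far the most abundant member, at 11945.8 and 15212.6 normalized counts in G0 and 17666.8 and 16000.1 in G2. The groups did not overlap, but the nearest lines were only 0.07 apart on the log2 scale. The log2 fold change was 0.32 (interval -0.10 to 0.74, adjusted p = 0.292). Per kb, Phlda1 made up 72.5% ± 0.37 of the PHLDA family in G0 and 75.7% ± 0.39 in G2, beside 21.8% ± 0.17 and 22.7% ± 0.42 for Phlda3 and 5.66% ± 0.20 and 1.62% ± 0.029 for Phlda2.

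**Figure D3:**
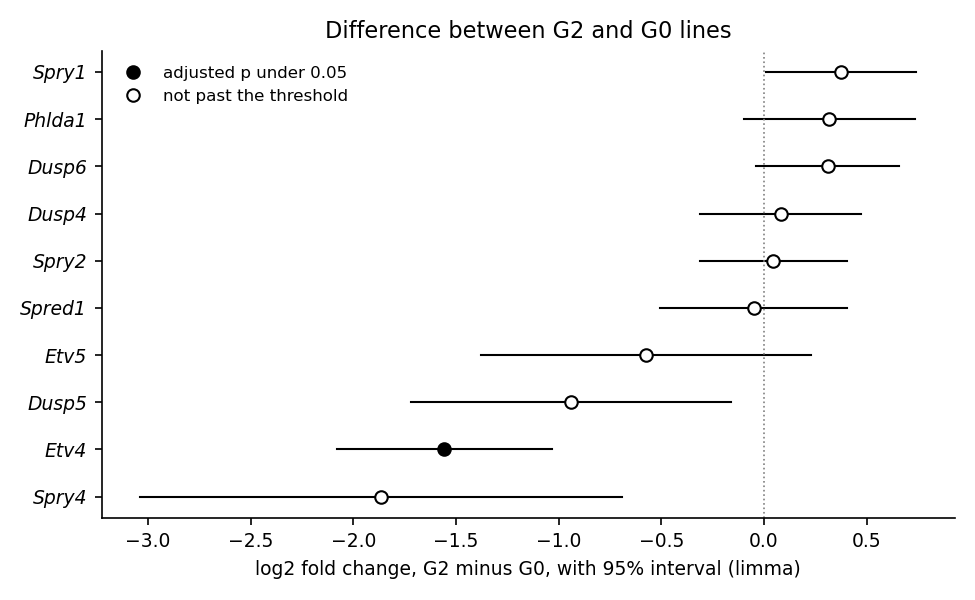
Log2 fold change of each member, G2 minus G0, with its 95% interval from limma; a filled point passed the adjusted threshold. The interval of Etv4 runs from -2.08 to -1.03, and those of Dusp5, Spry4 and Spry1 also leave out 0 without passing over all genes.

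Ordered by normalized counts per kb in G0, the members were Phlda1 (6967), Dusp6 (557), Etv4 (494), Spry2 (244), Dusp4 (170), Spry1 (163), Spred1 (112), Etv5 (102), Dusp5 (43.3) and Spry4 (8.48). Within that order the lines overlapped between Dusp6 and Etv4, between Dusp4 and Spry1, and between Spred1 and Etv5. In G2 the order was Phlda1 (8637), Dusp6 (691), Spry2 (252), Spry1 (211), Dusp4 (180), Etv4 (170), Spred1 (107), Etv5 (73.3), Dusp5 (22.5) and Spry4 (2.31). Etv4 thus stood in the third place in G0 and in the sixth in G2, where its lines overlapped with those of Dusp4.

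The neighbourhood of each member was also read. Of 59 genes tested within 1 Mb of Etv4 on either side, 4 were higher and 1 lower in G2, with a median log2 fold change of -0.07. Its flanking tested genes Dhx8 and Dusp3 had log2 fold changes of -0.18 and -0.41 (adjusted p = 0.518 and 0.148). Around Spry4, 35 genes tested had a median of 0.32, with 4 higher and 2 lower. These counts stand beside 10.5% of all genes tested that passed. Over the windows of all members the medians ran from -0.41 (Spred1, 4 genes) to 0.47 (Phlda1, 8 genes). Of the flanking tested genes only Meis2, before Spred1 and outside its window, passed (log2 fold change 3.68, limma adjusted p = 0.00520). The chromosomes that hold the members had medians between -0.04 (chromosome 19) and 0.11 (chromosome 18).

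The genes whose 4 library values, each as log2(normalized count + 1) less the gene's mean, lay closest to those of Etv4 were Krt80, Rbm11 and Ly6g, at distances of 0.096, 0.131 and 0.159 among 10747 genes. Krt80 encodes a keratin, Rbm11 an RNA-binding protein and Ly6g a surface protein of the Ly6 family. Krt80 was at 2489.1 and 2939.7 normalized counts in G0 and at 1053.9 and 714.5 in G2. As only 4 libraries enter, many genes lie near.

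The rest of the pathway was described by 6 lists, chosen with earlier results of these data known, of which 108 genes were tested. In total 15 of them passed (13.9%), 9 higher and 6 lower in G2, beside 10.5% of all genes. None of these calls held when any single library was left out. Such a fit leaves a single library in a group, where hardly any gene passes, so this loss was near certain. With no intensity trend in the fit 6 passed, Mras, Fgfr2, Kit, Egr3, Phlda2 and Etv1.

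Among 28 genes of the Ras-ERK cascade, 1 rose and 1 fell. Mras, a Ras relative that forms the SHOC2 phosphatase complex which activates RAF, fell 3.75-fold. It stood at 4385.2 and 4902.2 normalized counts in G0 and at 1172.9 and 1301.0 in G2, 2 well separated pairs (log2 fold change -1.91, SE 0.14, adjusted p = 0.000517). Gab1, a docking protein of receptor tyrosine kinases, rose 1.76-fold from 620 ± 9.1 to 1091 ± 89 (adjusted p = 0.0164). The ERK-activated kinases Rps6ka2 and Rps6ka1 had log2 fold changes of 0.87 and -0.51 and did not pass (adjusted p = 0.0521 and 0.0874). Rps6ka2 passed with a filter at a mean of 5 normalized counts, on the deposited log2 values and with voom weights (adjusted p = 0.0418, 0.0484 and 0.0434). With no filter on low values its limma adjusted p was 0.0730. The kinase genes Braf, Map2k1, Map2k2 and Mapk3 had log2 fold changes between -0.31 (Map2k1) and 0.29 (Mapk3), with 0 past the threshold.

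Of 18 other negative regulators of Ras and ERK, 2 rose and 1 fell. Pea15a, which holds ERK in the cytoplasm, fell 1.76-fold, from 4080.8 and 4122.1 in G0 to 2291.3 and 2357.6 in G2 (log2 fold change -0.82, SE 0.12, adjusted p = 0.00926). It overlaps the end of Dcaf8 on the opposite strand, so that reads cannot be told apart. Overlaps of the other genes in these lists are not given here. Cblb, a ubiquitin ligase that promotes receptor degradation, rose 1.76-fold from 636 ± 32 to 1118 ± 148 (adjusted p = 0.0222). Rasal1, a Ras GTPase activator, rose from 3.9 and 3.0 to 28.2 and 15.6 normalized counts (adjusted p = 0.0420), a low gene whose call was lost under 4 settings other than leaving out a library. Il17rd (Sef), a further ERK feedback inhibitor, stood at 202 ± 4.3 and 346 ± 49 and did not pass (adjusted p = 0.0553). It passed with a filter at a mean of 5 and with voom weights (adjusted p = 0.0462 and 0.0486). With no intensity trend its limma adjusted p was 0.116. The relatives of the members in this list, Spred2, Spred3 and Spry3, had log2 fold changes of -0.24, 0.42 and -1.90, with 0 past the threshold.

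Of the 7 other MAP kinase phosphatase genes, 6 were tested and 1 rose. Dusp10, which acts on p38 and JNK rather than ERK, rose 2.51-fold from 260.2 and 200.1 to 549.6 and 607.0 in G2 (adjusted p = 0.00871, log2 fold change 1.34, SE 0.20). Dusp9, an ERK-selective relative of Dusp6, stood at 487.0 and 503.8 in G0 and 178.5 and 311.8 in G2, with both G2 lines below (adjusted p = 0.0541). It passed with a filter at a mean of 5 and on the deposited log2 values (adjusted p = 0.0418 and 0.0486). With no intensity trend its limma adjusted p was 0.1725. Dusp1, the stress-induced phosphatase, stood at 916 ± 56 and 1453 ± 273 (adjusted p = 0.0551). Its limma adjusted p was 0.0464 with a filter at a mean of 5 and 0.180 with no intensity trend. Dusp8 had a log2 fold change of 0.82 (adjusted p = 0.0871).

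Among the 6 lists the receptor tyrosine kinases held the largest rise and the largest fall, with 2 genes higher and 1 lower of 15 tested. Fgfr2, an epithelial FGF receptor, rose 16.6-fold, from 32.4 and 32.5 normalized counts in G0 to 493.2 and 581.6 in G2 (95% interval 3.45 to 4.56 on the log2 scale, adjusted p = 0.000323). Fgfr4, the FGF receptor of enterohepatic tissue, fell 7.27-fold, from 302.4 and 357.6 to 27.2 and 63.5 (log2 fold change -2.95, SE 0.40, adjusted p = 0.00645), and 12.1-fold without G2 replicate 2. Kit, the stem cell factor receptor, was at 0 in both G0 lines and at 13.1 and 20.5 in G2, at least 5.61-fold higher against a floor of 3 counts per library (adjusted p = 0.0104). Epha2 had a log2 fold change of -0.45 (adjusted p = 0.106). Egfr, the receptor most directly tied to this pathway in the crypt, stood at 1152.8 and 864.4 in G0 and at 897.6 and 520.0 in G2 (adjusted p = 0.251).

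Of 15 ligand genes tested, 0 passed the limma test. An unadjusted p under 0.05 was reached by 2, Ereg and Igf1, beside 26.8% of all genes tested. Ereg passed on the deposited log2 values (adjusted p = 0.0450) and Igf1 with no filter on low values (adjusted p = 0.0484). The limma adjusted p was 0.232 for Ereg with no intensity trend and 0.0856 for Igf1 with a pseudocount of 5. Ereg, an EGF family ligand, stood at 244.5 and 176.7 in G0 and at 84.7 and 12.7 in G2 (adjusted p = 0.0787), 4.32-fold lower, or 16.6-fold without G2 replicate 1 and 2.49-fold without G2 replicate 2. Igf1 was at 0 in both G0 lines and at 4.0 and 9.8 in G2 (adjusted p = 0.0585). Nrg4, with 1 count in G0 and 7 in G2, and Egf, at 2.0 normalized counts in both G0 lines and 4.0 and 3.9 in G2, were close to the detection floor. The abundant ligands Tgfa, Areg and Hbegf had log2 fold changes of -0.02, 0.08 and -0.23 (adjusted p = 0.941, 0.802 and 0.512).

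Other ERK-responsive genes moved in both directions, with 3 higher and 3 lower of 26 tested and a median log2 fold change of 0.0035. The share that passed was 23.1%, beside 10.5% of all genes tested, in a list chosen with earlier results of these data known. This share was not tested. Of the 6 FOS and JUN genes in this list, grouped after their values were seen, 2 rose and 2 fell, while Junb and Fosb had log2 fold changes of -0.15 and 0.48 (adjusted p = 0.651 and 0.578). Fosl2 rose 1.92-fold to 4486 ± 81 normalized counts, from 2338 ± 31 (adjusted p = 0.00573). Jun rose 2.04-fold to 7099 ± 1451, from 3488 ± 353 (adjusted p = 0.0157). Fos fell 1.83-fold from 577 ± 64 to 316 ± 8.5 (adjusted p = 0.0237), and Fosl1, a sensitive ERK target, fell from 621 ± 36 to 269 ± 124 (adjusted p = 0.0446). The call of Fosl1 was lost with a pseudocount of 0.5, with no filter on low values, with scaling by library totals or upper quartile and with no intensity trend. Phlda2, a relative of Phlda1, fell 2.96-fold, from 351.5 and 474.4 to 145.2 and 133.9 (log2 fold change -1.54, SE 0.22, adjusted p = 0.00802). Egr3 rose from a count of 2 in G0 to 23 in G2, which is 11.4-fold (lower bound of its counting interval 2.82, adjusted p = 0.0371). The call of Egr3 was lost on the deposited log2 values and with voom weights, and with a filter at a mean of 5 normalized counts it was not among the genes that passed. Fosl1 and Egr3 were named after their values were seen. The cell cycle targets Ccnd1 and Myc had log2 fold changes of -0.18 and -0.30 (adjusted p = 0.551 and 0.229), and Egr1, the classical immediate early readout, -0.29 (adjusted p = 0.335).

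**Figure D4:**
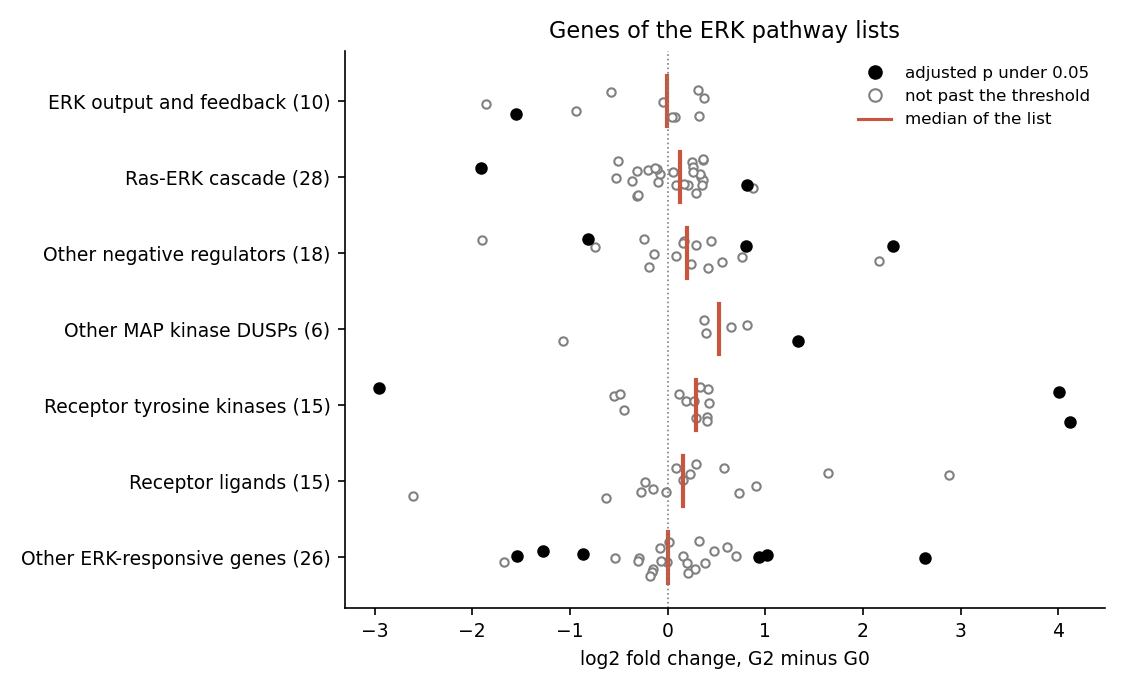
Log2 fold change, G2 minus G0, of each tested gene in the panel and in the 6 pathway lists, with the number tested in brackets; filled points passed the adjusted threshold and red bars are list medians. The receptor list spreads from -2.95 (Fgfr4) to 4.12 (Kit), while the panel of 10 has its median at -0.0022.

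Markers of other cell types were not equal between the groups. Of 4 fibroblast and smooth muscle markers tested, 2 rose, Acta2 and Col3a1. The calls in these marker lists stand beside 10.5% of all genes tested. Col3a1 went from 0 in both G0 lines to 7.1 and 6.8 normalized counts in G2. Col1a1 and Vim, also tested, had log2 fold changes of -1.17 and -0.02 and did not pass (limma adjusted p = 0.306 and 0.976). The 9 of 10 listed genes with a row summed to 44.2 and 51.8 normalized counts in the G0 lines and 228 and 483 in the G2 lines. Acta2 alone made up 184.6 and 434.0 of the G2 sums, while Dcn and Pdgfra were at 0 in all libraries. The endothelial receptor gene Tek rose from 2.9 and 4.1 to 47.4 and 45.0, with Pecam1 and Cdh5, the other 2 of its 5 listed markers with a row, at 2.0 or less throughout. Of 5 leukocyte and macrophage markers tested, Csf1r and Cd14 rose, while Cd68, Laptm5 and Cd79a did not pass (limma adjusted p = 0.918, 0.0550 and 0.520). Laptm5 stood at 1.0 in both G0 lines and at 7.1 and 23.5 in G2. The list (6 of 8 with a row) summed to 2122 and 3342 in G0 and 3283 and 4120 in G2, mostly from Cd68 and Cd14. Ptprc was at 0 in all libraries. Neuronal and glial markers summed to 22.2 to 35.3, with 0 of 2 tested past the threshold. The part of these markers in the results for the members and receptors was not tested.

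**Figure D5:**
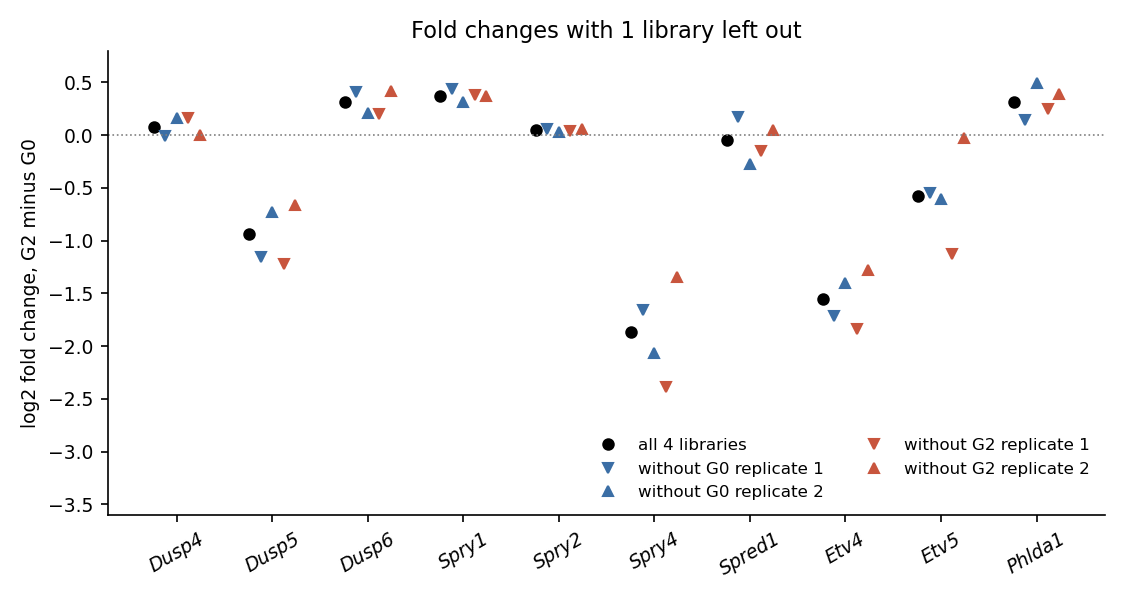
Log2 fold change of each member with all 4 libraries (black) and with 1 library left out (blue for a G0 line, red for a G2 line). Etv4 stays between -1.83 and -1.28 and Spry4 between -2.38 and -1.34, whereas Etv5 moves from -1.12 to -0.03 and Dusp4 and Spred1 cross 0.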

How the data were processed

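RNA-seq libraries of 4 colonoid lines (2 G0, 2 G2) were used, 1 per line. The submitters' processing notes list DESeq2 1.32.0, StringTie 2.1.1, HISAT2 2.1.0, bcl2fastq 2.20.0, R 3.5.2 and mm10. Neither annotation nor strand setting was given in the sources used here. In the deposited table the authors give log2-scale values with 1 shared floor (6.508), as a variance-stabilizing transformation gives. Its inversion from the floor, with 1 scale factor per library, turned 100.0% of values into whole numbers within 0.001. These counts can be rounded estimates, so no count model was run. They were divided by the authors' size factors and tested with limma 3.58.1 in R 4.3.3 (eBayes, intensity trend, group as the only term, two-sided) on log2(normalized count + 1). The recovery and the fit were run on simulated data as a check of the code. For the fit, the simulated dispersion was the same for all genes, so error rates in these data were not tested. The members and lists were chosen with earlier results of these data known. Named were all members, Tert, the 4 genes of smallest p in each list, and the 3 genes of mean at least 50 nearest to a called member. Other named genes were chosen after their values were seen. Counting intervals and the 3-count floor cover counting error only. Positions are from RefSeq GRCm38.p6 and transcript lengths from GENCODE M21. Alternatives covered pseudocount, filter, scaling, trend, voom weights, the deposited values, a replicate block and leaving out each library.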

Additional observations from a re-analysis of the deposited data

How the results depend on the processing

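Leaving out 1 library left 0 to 2 genes past the threshold in all in place of 1467 (2431 to 3234 with an unadjusted p under 0.05), 0 of the 10 members and 0 of the 108 pathway genes. The log2 fold changes then ranged from -1.83 to -1.28 for Etv4, from -0.0044 to 0.17 for Dusp4 (-0.0018 without G2 replicate 2) and from -0.27 to 0.17 for Spred1. Without an intensity trend 623 genes passed in all, 0 members (Etv4 at -1.56, adjusted p = 0.0718) and 6 pathway genes: Mras, Fgfr2, Kit, Egr3, Phlda2 and Etv1, the last of which had not passed with the trend. With a pseudocount of 5, 2 members passed, Etv4 and Spry4 (-1.54). Spred1 turned to 0.0145 with scaling by library totals and 0.0159 with voom weights. The cause of these shifts was not tested. With the replicate number as a block, 3503 genes passed in all, 37 pathway genes and 3 members: Etv4, Dusp5 (-0.94, adjusted p = 0.0332) and Spry4 (-1.86, adjusted p = 0.00605). The samples share only that number: over 13981 genes the deviations of same-numbered libraries correlated at 0.109, and nothing in the labels pairs them. The share of calls higher in G2 lay between 53.1% and 63.0% over the settings that kept all libraries. Of the members' log2 fold changes, 94 of 100 values under those settings kept direction and side of the threshold. Of the rest, 2 changed direction, 3 became calls and 1, Etv4 without the trend, lost its call. As only Etv4 passed in the main fit, most values had no call to lose. With 1 library left out, 4 values changed direction. Depth limits Spry4 most, which had 22 counts in both G2 libraries together.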
